A study of Mus musculus with 12 samples.

Results

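The genes of the thioredoxin system and of the enzymes that supply it with NADPH were followed in primary mouse hepatocytes, the main metabolic cells of the liver, kept in culture. The set of 10 genes was chosen by name, with earlier results of these data known. It held Nqo1, Srxn1, Txnrd1, Txn1, Prdx1, G6pdx, Pgd, Taldo1, Tkt and Me1. They were matched by symbol to the Ensembl identifiers of the count files, 10 of the 55487 genes listed, and all 10 passed the filter on low counts that left 13535 genes for testing. RNA was sequenced in 12 libraries, which formed 4 groups of 3. Control cells received neither FAC nor a scavenger. FAC cells received only FAC. The labels give no full name for FAC, which in iron-loading work usually stands for ferric ammonium citrate. Lip-1+FAC cells were pretreated with liproxstatin-1, which the labels call a scavenger of lipid reactive oxygen species (ROS), and then received FAC. MT+FAC cells were pretreated with Mito-TEMPO, labelled a mitochondrial ROS scavenger, and then received FAC. Both pretreatments were given on culture day 2, and no group received a scavenger without FAC. Mouse strain, number of animals, doses and durations are not given in the sources used here. The labels do not say whether replicates came from separate cultures or animals, so p-values measure only the spread between these samples, which may be technical.

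Thioredoxin is a small protein that reduces disulfides in other proteins, and thioredoxin reductase restores it with electrons from NADPH. Peroxiredoxins use reduced thioredoxin to remove peroxides, and sulfiredoxin rescues peroxiredoxins that have been over-oxidised. In hepatocytes the NADPH comes largely from the oxidative branch of the pentose phosphate pathway, malic enzyme and isocitrate dehydrogenases, and it also feeds fatty acid synthesis. Many of these genes are known targets of the transcription factor NRF2, which binds antioxidant response elements (AREs).

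The promoter sequences are shown first because the members moved unequally and the ARE is the sequence feature they are best known for. RefSeq promoter windows of build GRCm38.p6, 250 bases before to 50 bases after a start site, were found for all 10 genes, in 14 windows because Txnrd1, Pgd and Me1 have several starts. The ARE core was searched as TGACNNNGC on both strands and occurred in 12.4% of all 32851 windows. It was present in 6 of the 10 members, against 3781 of all 27025 genes with a window. The related form TGAGNNNGC, added after the sequences had been seen, occurred in 17.6% of windows. Either form was present in 27.8% of all windows, and counted by gene in 7 of the 10 members and in 30.8% of all genes with a window. The AP-1 motif TGANTCA occurred in 7.81% of windows and in Srxn1, Prdx1 and Me1. The E-box CACGTG occurred in 7.15% of windows and in no member. A match describes these letters only and is not evidence of binding, and a window without a match says nothing about sites elsewhere.

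Srxn1 and Prdx1 held the most matches, and the parts of their windows upstream of the annotated gene are printed 5′ to 3′ on the gene's strand, with ARE and AP-1 matches in capitals. The Srxn1 stretch is chr2:152105274-152105515 on the plus strand. It holds ARE matches of the G form from -158 to -150 and from -45 to -37, counted from the start site, and AP-1 matches from -102 to -96 and from -45 to -39, the latter inside the ARE match.
Srxn1: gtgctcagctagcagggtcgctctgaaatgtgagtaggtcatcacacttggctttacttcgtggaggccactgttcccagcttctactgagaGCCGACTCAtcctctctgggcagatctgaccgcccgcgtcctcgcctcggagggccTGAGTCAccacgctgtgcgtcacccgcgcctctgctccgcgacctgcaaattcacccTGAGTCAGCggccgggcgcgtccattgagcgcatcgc
The Prdx1 stretch is chr4:116685349-116685543 on the plus strand. Its ARE core from -133 to -125 overlaps an AP-1 match from -131 to -125, an overlap found in 0.454% of all windows, and a separate AP-1 match lies from -237 to -231.
Prdx1: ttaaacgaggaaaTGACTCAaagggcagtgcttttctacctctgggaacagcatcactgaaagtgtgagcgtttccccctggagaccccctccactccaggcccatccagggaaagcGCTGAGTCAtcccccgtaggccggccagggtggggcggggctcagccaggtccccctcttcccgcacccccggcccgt

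ARE matches outside these stretches are shown with 8 bases on either side, the match in capitals, so that they can be compared letter by letter. Those of Txnrd1 (start 2, chr10:82859106-82859130, plus strand) and G6pdx (chrX:74428921-74428945, minus strand) lie upstream of the start, from -92 to -84 and from -57 to -49. The match in Me1 (start 1, chr9:86695904-86695928, minus strand) spans the start, from -6 to 3, and overlaps AP-1 letters. That of Srxn1 (chr2:152105544-152105568, plus strand) lies after the start, from 29 to 37. The match in Pgd (start 2, chr4:149166063-149166087, minus strand) also lies after it, from 4 to 12. The Taldo1 match (chr7:141391931-141391955, plus strand) is of the G form, from -221 to -213. Prdx1 has a further G form match from 16 to 24, not printed.
Srxn1 after the start: agtgggcaGCTAGGTCAgagtgaga
Txnrd1: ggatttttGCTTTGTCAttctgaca
G6pdx: gcgggtcaGCTCAGTCAaagcacac
Me1: tgccgccgTGACTCAGCgcttctcg
Pgd: ttcagagcTGACATTGCactgatcg
Taldo1: aggcttacTGAGCGCGCgtctcagt
The windows of Nqo1, Txn1 and Tkt held none of the motifs searched.

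**Figure D1:**
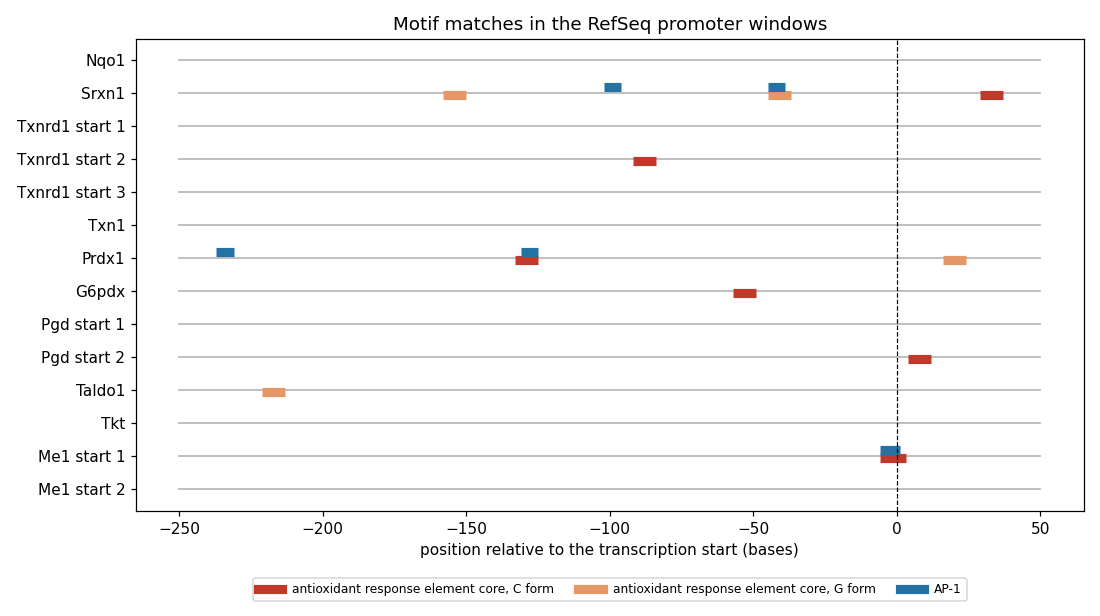
Motif matches in the 14 RefSeq promoter windows of the 10 genes. The x axis is the position in bases relative to the transcription start, each grey line is a window, and coloured bars mark the ARE core (C or G form) and AP-1 matches; Srxn1 and Prdx1 carry the most bars, and the lines of Nqo1, Txn1 and Tkt carry none.

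Gene counts per library ranged from 22991598 to 31683376, except for FAC replicate 2 with 52529278, whose file is marked as combined. Levels are given as CPM, TMM-scaled counts per 1e6 counts of the library, with the SD over 3 libraries. Summed hepatocyte markers stood between 49342 and 60922 CPM in every library, a sum that is mostly Trf and Alb. With FAC 1 of the 10 hepatocyte markers rose and 4 fell, against 17.5% and 19.1% of all genes tested. Those that fell included, named after their values were seen, Cps1 by 1.25, Tat by 0.88 and Cyp3a11 by 0.70 on the log2 scale. Relative to control, 1 rose and 7 fell in Lip-1+FAC (15.4% and 14.8% of all genes). In MT+FAC 2 rose and 5 fell (9.71% and 10.1%). Relative to FAC, 3 rose and 4 fell in each pretreated group (20.7% and 19.2% of all genes with liproxstatin-1, 21.2% and 19.7% with Mito-TEMPO). The part of these changes in the results was not tested. Blood cell markers reached at most 0.432 CPM, with 2 of 7 at 0 throughout. Markers of other cell types were low and some differed between groups. Macrophage markers summed to 224 to 255 CPM in control, 290 to 322 under FAC, 116 to 147.05 under Lip-1+FAC and 143.05 to 175 under MT+FAC, nearly all of it Cd68. Endothelial markers lay between 25.2 and 36.5 CPM and stellate markers between 10.95 and 22.7 CPM.

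Compared per kilobase of exon, the peroxiredoxin gene was the most abundant in every group. The quinone reductase gene was the least abundant in 3 groups and G6pdx in Lip-1+FAC. The place of G6pdx there depends on the counting. Of its exonic bases 13.57% are shared with Ikbkg, and the unstranded counts drop the reads there. With the stranded columns summed and scaled to library totals alone, G6pdx averaged 90.3 CPM in Lip-1+FAC, against 59.4 CPM unstranded. Group means ran from 846 to 1182 CPM per kb for Prdx1, 183 to 700.1 for Srxn1, 244 to 311 for Txn1 and 95.3 to 210.5 for Txnrd1. Among the NADPH enzymes they ran from 77.1 to 131 for Me1, 73.5 to 86.4 for Taldo1, 46.2 to 89.9 for Pgd, 45.0 to 50.4 for Tkt and 18.05 to 35.4 for G6pdx. Nqo1 stood at 5.85 to 21.2 CPM per kb, behind which lay 164 to 910 counts per library. The ratio of the highest to the lowest group mean was 3.83 for Srxn1, 3.62 for Nqo1, 2.21 for Txnrd1, 1.96 for G6pdx, 1.94 for Pgd and 1.70 for Me1. It was only 1.40 for Prdx1, 1.28 for Txn1, 1.18 for Taldo1 and 1.12 for Tkt. The ratio of G6pdx, and so its place in this order, also depends on the counting. With the stranded columns summed its means ran from 88.0 CPM in MT+FAC to 130 CPM in FAC. On the same scaling to library totals, the unstranded means of these groups were 56.1 and 108 CPM.

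**Figure D2:**
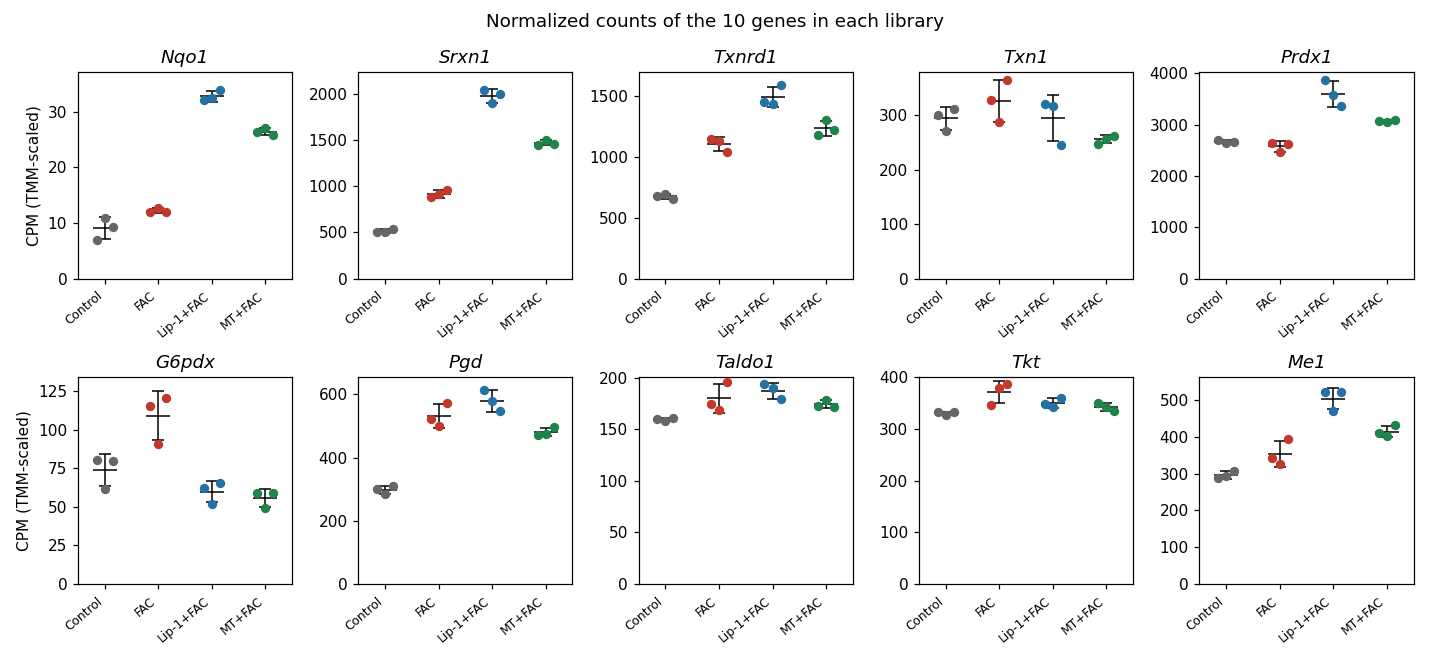
Level of each of the 10 genes in the 12 libraries. The y axis is CPM on a linear scale from 0 (a separate scale per gene), points are libraries, and the bar with whiskers is the group mean with its SD (n = 3); Nqo1, Srxn1, Txnrd1 and Me1 climb from Control through FAC and MT+FAC to Lip-1+FAC, whereas G6pdx peaks in FAC.

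The effect of FAC alone was asked by comparing FAC with control cells. Of the 10 genes, 8 rose and 0 fell at an edgeR adjusted p under 0.05, against 36.6% of all genes tested called in either direction, 17.5% higher and 19.1% lower. The thioredoxin reductase gene Txnrd1, the sulfiredoxin gene Srxn1 and the pentose phosphate gene Pgd rose most, by 0.71 to 0.84 on the log2 scale. Txn1 and Prdx1, the thioredoxin and its peroxiredoxin, were the genes not called. All 3 FAC libraries lay above all 3 control libraries for 8 of the 10 genes and below them for 1, against 46.2% of all genes separated in either direction, 21.7% higher and 24.5% lower. The median log2 fold change of the 10 was 0.34, and that of all genes was -0.01. In these bulk samples fewer cells of a type and less RNA per cell cannot be told apart.

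Adding liproxstatin-1 was asked by comparing Lip-1+FAC with FAC. Of the 10 genes, 5 rose and 1 fell, with 39.9% of all genes called in either direction, 20.7% higher and 19.2% lower. Nqo1, Srxn1, Txnrd1, Prdx1 and Me1 rose beyond their FAC level, and G6pdx fell. Libraries were separated upward for 5 of the 10 genes and downward for 1, with 50.8% of all genes separated, 26.4% higher and 24.4% lower. The median log2 fold change was 0.28, and 0.00 over all genes.

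Adding Mito-TEMPO gave the same directions for these 6 genes. In MT+FAC against FAC 5 genes rose and 2 fell, with 40.9% of all genes called, 21.2% higher and 19.7% lower. The additional fall was that of Txn1. Libraries were separated upward for 5 genes and downward for 3, with 52.9% of all genes separated, 27.1% higher and 25.7% lower. The median was 0.06, and -0.00 over all genes. The 3 comparisons share the FAC libraries or, for FAC itself, set them against control, so they are not independent of each other.

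**Figure D3:**
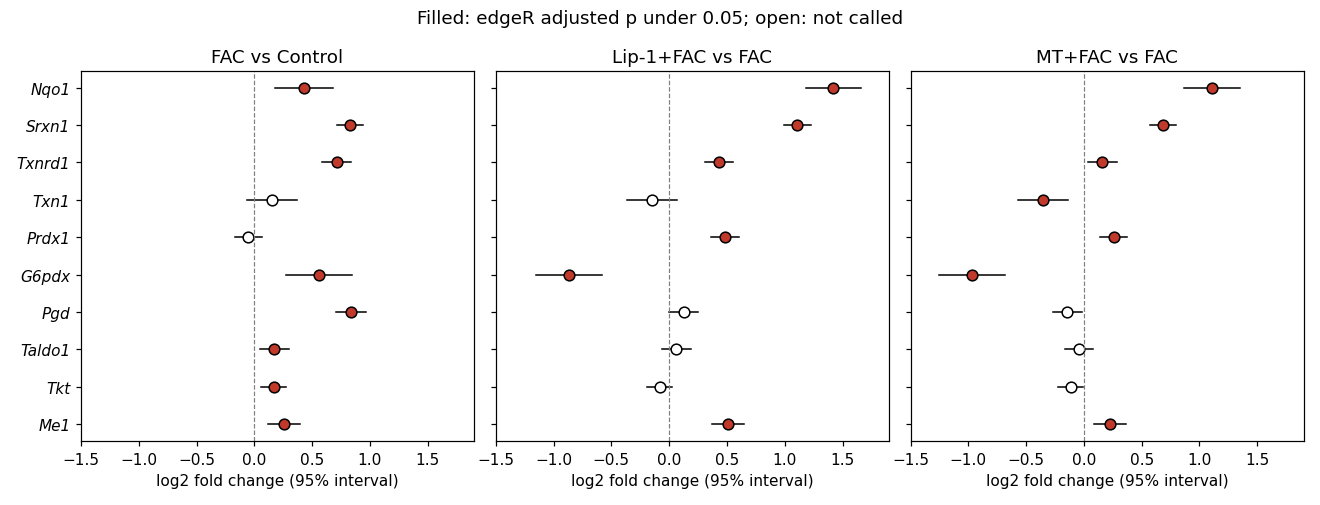
Log2 fold changes of the 10 genes in FAC against Control, Lip-1+FAC against FAC and MT+FAC against FAC. The x axis is the log2 fold change, lines are 95% intervals, and filled points passed an edgeR adjusted p under 0.05; G6pdx is right of 0 in the first panel and left of it in the others.

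Within the thioredoxin arm, Srxn1 changed in every comparison. Srxn1 (sulfiredoxin, ENSMUSG00000032802, GRCm38 chromosome 2, 152105516 to 152111376) encodes the enzyme that reduces over-oxidised peroxiredoxins. Control libraries held 499, 509 and 539 CPM, FAC libraries 878, 910 and 959, Lip-1+FAC libraries 2034, 1893 and 1996, and MT+FAC libraries 1449, 1500.4 and 1454. The 4 groups did not overlap. Group means were 516 ± 20.9, 916 ± 41.1, 1974 ± 73.3 and 1468 ± 28.3 CPM (SD, n = 3) in that order. FAC raised it by 0.83 on the log2 scale (SE 0.054, edgeR adjusted p = 5.15e-09), a fold of 1.78. Liproxstatin-1 added 1.11 (SE 0.054) and Mito-TEMPO 0.68 (SE 0.054). The pretreated groups stood 3.83-fold and 2.85-fold above control.

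Txnrd1 (cytosolic thioredoxin reductase, ENSMUSG00000020250, chromosome 10, 82833951 to 82897712) passes electrons from NADPH to thioredoxin. It stood at 679, 692 and 654 CPM in control, 1145, 1130.5 and 1042 under FAC, 1451, 1436 and 1587 under Lip-1+FAC and 1183, 1302 and 1221 under MT+FAC. All 3 FAC-treated groups were above control without overlap, and the order of means was the same as for Srxn1. The rise with FAC was 0.71 (SE 0.059, edgeR adjusted p = 7.03e-08), and liproxstatin-1 added 0.43 (SE 0.059, edgeR adjusted p = 1.44e-05). Mito-TEMPO added 0.16 (SE 0.059, edgeR adjusted p = 0.0371). This last call was lost in 10 of 17 alternatives, 5 of them fits without a library (FAC replicate 1, 2 or 3, MT+FAC replicate 2 or 3), and was 0.10 with offsets for GC content and length.

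Nqo1 (NAD(P)H quinone dehydrogenase 1, ENSMUSG00000003849, chromosome 8, 107388225 to 107403206) reduces quinones with NADPH or NADH. Its libraries held 7.01, 10.9 and 9.35 CPM in control, 11.9, 12.7 and 12.1 under FAC, 32.1, 32.5 and 34.0 under Lip-1+FAC and 26.4, 27.0 and 25.8 under MT+FAC. All pretreated libraries were above all FAC libraries, and those were above all control libraries. FAC raised Nqo1 by 0.43 (SE 0.12, edgeR adjusted p = 0.00954), but without control replicate 1, the lowest library, the rise was 0.28 and no longer called. Liproxstatin-1 raised it by a further 1.42 (SE 0.11, edgeR adjusted p = 4.75e-08) and Mito-TEMPO by 1.11 (SE 0.11, edgeR adjusted p = 9.78e-07), the largest rises of the set.

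Prdx1 and Txn1, the proteins that sulfiredoxin and thioredoxin reductase serve, were not called with FAC. Prdx1 (peroxiredoxin 1, ENSMUSG00000028691, chromosome 4, 116685544 to 116700822) held 2701, 2645 and 2654 CPM in control and 2644, 2459.6 and 2615 in FAC. Those groups lay next to each other without overlap, and the log2 difference of -0.05 (95% interval -0.17 to 0.07) was not called. Pretreated libraries were higher, at 3858, 3574 and 3359.5 CPM with liproxstatin-1 and 3077, 3056 and 3097 with Mito-TEMPO. Prdx1 rose by 0.48 (SE 0.056, edgeR adjusted p = 2.47e-06) with liproxstatin-1 and by 0.26 (SE 0.056, edgeR adjusted p = 0.00134) with Mito-TEMPO. Annotated pseudogene copies of Prdx1, up to 98.3% identical, can divert or lose its reads, although the largest of them collected 2371 counts in all libraries against 1017850 for Prdx1.

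Txn1 (thioredoxin, ENSMUSG00000028367, chromosome 4, 57943373 to 57956411) is the carrier itself. Its libraries held 302, 271 and 312 CPM in control, 328, 288 and 365 under FAC, 321, 318 and 246 under Lip-1+FAC and 248, 257 and 263 under MT+FAC. Only the MT+FAC libraries were all below those of control and FAC. The difference between FAC and control was 0.15 (95% interval -0.07 to 0.36, not called), and 0.17 and called with the GC and length offsets (edgeR adjusted p = 0.0488). Without FAC replicate 3 it was 0.063 and without control replicate 2 it was 0.091, neither of them called. In MT+FAC, Txn1 fell by 0.35 relative to FAC (SE 0.10, edgeR adjusted p = 0.0125), a call lost without FAC replicate 3, at -0.26, and the difference was -0.18 with the GC and length offsets, where it was still called. With the replicate block added to the offsets the difference was also -0.18 and the call was lost (edgeR adjusted p = 0.0601). Lip-1+FAC differed from FAC by -0.15 (95% interval -0.36 to 0.07, not called). This difference was -0.029 without Lip-1+FAC replicate 3, -0.058 without FAC replicate 3 and -0.0018 with the GC and length offsets.

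G6pdx (glucose-6-phosphate dehydrogenase, ENSMUSG00000031400, chromosome X, 74409483 to 74429194) encodes the first, rate-controlling enzyme of the oxidative branch. It stood at 80.6, 61.9 and 79.6 CPM in control, 116, 90.9 and 121 under FAC, 62.1, 52.0 and 65.3 under Lip-1+FAC and 59.0, 48.9 and 58.9 under MT+FAC. Every FAC library was above every other library, and replicate 2 was the lowest in all 4 groups. G6pdx rose by 0.56 with FAC (SE 0.13, edgeR adjusted p = 0.00487) and was lower than FAC by -0.87 in Lip-1+FAC (SE 0.13, edgeR adjusted p = 0.000198) and by -0.97 in MT+FAC (SE 0.13, edgeR adjusted p = 8.77e-05).

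Relative to control, G6pdx differed by -0.31 in Lip-1+FAC (95% interval -0.60 to -0.02, edgeR adjusted p = 0.10, not called) and by -0.41 in MT+FAC (SE 0.13, edgeR adjusted p = 0.0454). The first difference was called in 4 of 17 alternatives. These were the replicate block, at -0.30, the block with GC and length offsets, at -0.21, no filter, at -0.29, and leaving out control replicate 2, at -0.42. It was smallest, at -0.11, with the stranded columns summed. The second difference lost its call in 7 of 17 alternatives, among them the fits without control replicate 1 or 3 and without any 1 of the MT+FAC replicates. Of the exonic bases of G6pdx, 13.57% are shared with Ikbkg on the opposite strand, and reads there count for neither gene in the unstranded counts used. Ikbkg averaged 307 CPM in control, 289 under FAC, 428 under Lip-1+FAC and 432 under MT+FAC. With the stranded columns summed, which adds such reads to both genes, the changes of G6pdx were 0.43 with FAC, -0.54 for Lip-1+FAC and -0.61 for MT+FAC against FAC, all called, and -0.18 in MT+FAC against control, not called. Summed markers of cholangiocytes, the bile duct cells, followed the same group pattern, at 36.2 to 40.2 CPM in control, 106 to 161 under FAC, 22.7 to 27.0 under Lip-1+FAC and 29.7 to 35.4 under MT+FAC. All 5 of these markers rose with FAC and fell with each pretreatment, mostly through Cldn4 and Sox9, and the defining keratin Krt19 stood at 9.96 CPM in FAC and 3.96 in control. Their part in the result was not tested, nor was that of the macrophage markers.

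Pgd (6-phosphogluconate dehydrogenase, ENSMUSG00000028961, chromosome 4, 149149991 to 149166771) makes the second NADPH of the same branch. It held 299.8, 285 and 309 CPM in control, 522, 499.9 and 574 under FAC, 615, 578 and 546 under Lip-1+FAC and 472, 476 and 497 under MT+FAC. All FAC-treated libraries were above all control libraries, with a log2 difference of 0.84 for FAC (SE 0.061, edgeR adjusted p = 1.86e-08), 0.96 for Lip-1+FAC and 0.69 for MT+FAC. Unlike G6pdx, Pgd was not called against FAC in either pretreated group, at 0.12 (95% interval -0.00 to 0.25) for Lip-1+FAC and -0.14 (95% interval -0.27 to -0.02) for MT+FAC. The latter difference was called in 5 of 17 alternatives, and the former in 1, without FAC replicate 3, at 0.19. Over the 17 alternatives the MT+FAC difference ran from -0.21 to -0.084 and the Lip-1+FAC difference from 0.052 to 0.19.

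The ratio of Pgd to G6pdx CPM within a library, looked at after both genes had been seen, is given as a description without a test. It was 3.72, 4.61 and 3.89 in control, 4.51, 5.50 and 4.76 under FAC, 9.91, 11.1 and 8.36 under Lip-1+FAC and 8.003, 9.72 and 8.44 under MT+FAC. All 6 pretreated libraries were above all 6 others. Group means were 4.07 ± 0.47 in control, 4.92 ± 0.516 under FAC, 9.79 ± 1.38 under Lip-1+FAC and 8.72 ± 0.891 under MT+FAC (SD, n = 3). With the stranded columns summed for both genes, an alternative added after seeing the data, the means were 2.79 ± 0.194, 3.73 ± 0.289, 5.87 ± 0.582 and 5.05 ± 0.146 in the same order. The pretreated means were thus 1.67 and 1.73 times lower than in the unstranded counts, and the FAC mean 1.32 times. The pretreated libraries, at 4.89 or more, were again above the others, at 4.04 or less. These values compare the genes' counts, not their molar amounts, since the transcripts differ in length.

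**Figure D4:**
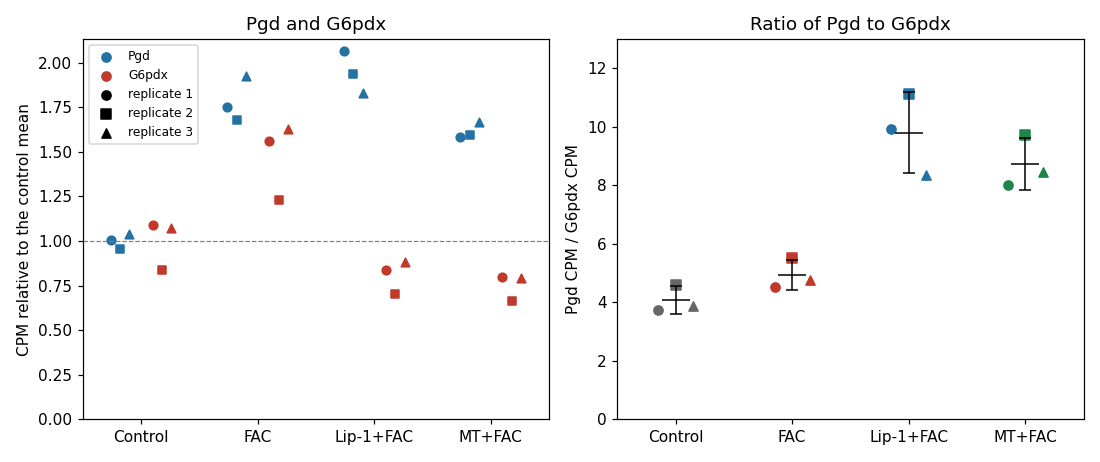
Pgd and G6pdx in the 12 libraries. Left, CPM relative to the mean of the control libraries (dashed line at 1) with a marker shape per replicate number; right, the ratio of Pgd to G6pdx CPM on a linear scale from 0, with group means and SD (n = 3), which lies between 8.003 and 11.1 in the pretreated libraries and between 3.72 and 5.50 in the others.

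Taldo1 and Tkt belong to the non-oxidative branch, which interconverts sugar phosphates without making NADPH. Taldo1 (transaldolase, ENSMUSG00000025503, chromosome 7, 141392199 to 141402968) averaged 159.6 ± 1.70 CPM in control, 179.95 ± 14.3 under FAC, 188 ± 7.69 under Lip-1+FAC and 175 ± 3.65 under MT+FAC (SD, n = 3). Tkt (transketolase, ENSMUSG00000021957, chromosome 14, 30548359 to 30574720) averaged 331 ± 2.73, 371 ± 21.6, 349.9 ± 9.01 and 342 ± 7.88 CPM in the same order. Both rose with FAC by 0.17 (SE 0.059 and 0.052, edgeR adjusted p = 0.0293 and 0.0192). These calls were fragile. That of Taldo1 was lost without control replicate 1, 2 or 3 or without FAC replicate 3, at 0.11 in the last case. That of Tkt was lost without control replicate 2, FAC replicate 2 or FAC replicate 3, and with the GC and length offsets. Neither gene was called against FAC after pretreatment, with intervals of -0.06 to 0.19 and -0.17 to 0.08 for Taldo1 and of -0.19 to 0.03 and -0.22 to -0.00 for Tkt. The MT+FAC difference of Tkt was called lower in 5 of 17 alternatives, and the Lip-1+FAC difference of Taldo1 was 0.14 and called higher with the offsets.

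Me1 (cytosolic malic enzyme, ENSMUSG00000032418, chromosome 9, 86581371 to 86695953) makes NADPH while turning malate into pyruvate and is known for serving fatty acid synthesis in the liver. Its libraries held 287, 295 and 308 CPM in control, 344, 325 and 394 under FAC, 521, 472 and 522 under Lip-1+FAC and 411, 401 and 432 under MT+FAC. The 4 groups did not overlap, in the same order as Srxn1, Txnrd1 and Nqo1. FAC raised Me1 by 0.26 (SE 0.067, edgeR adjusted p = 0.00588), liproxstatin-1 added 0.51 (SE 0.067, edgeR adjusted p = 9.49e-06) and Mito-TEMPO 0.23 (SE 0.067, edgeR adjusted p = 0.0115). The last call was lost without FAC replicate 2, at 0.17, without MT+FAC replicate 3, at 0.20, and with the GC and length offsets, at 0.15.

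Each pretreated group was also set against control. In Lip-1+FAC 7 of the 10 genes rose and 0 fell, with 30.2% of all genes called, 15.4% higher and 14.8% lower. Libraries were separated upward for 8 and downward for 0, with 43.3% of all genes separated, 21.3% higher and 22.0% lower. In MT+FAC 6 rose and 1 fell, with 19.8% of all genes called, 9.71% higher and 10.1% lower. Libraries were separated upward for 8 and downward for 2, with 38.2% of all genes separated, 19.0% higher and 19.2% lower. Srxn1, Nqo1, Txnrd1, Pgd, Me1 and Prdx1 rose in both comparisons, from 1.94 for Srxn1 to 0.43 for Prdx1 in Lip-1+FAC and from 1.54 for Nqo1 to 0.21 for Prdx1 in MT+FAC. The call of Prdx1 in MT+FAC was lost without MT+FAC replicate 1, at 0.20. Taldo1 rose by 0.23 in Lip-1+FAC (edgeR adjusted p = 0.00623; 0.39 with the GC and length offsets) and differed by 0.13 in MT+FAC, where it was not called. With the offsets that difference was 0.25 and called, with and without the replicate block (edgeR adjusted p = 0.00521 and 0.00275). Txn1 differed by -0.20 in MT+FAC and was called in 2 of 17 alternatives, without a filter and with only the compared groups, but was -0.0024 with the GC and length offsets. Tkt was not called in either, with 95% intervals of -0.03 to 0.19 and -0.06 to 0.16.

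The scavengers were compared directly, MT+FAC against Lip-1+FAC. All 10 genes were lower with Mito-TEMPO in sign, and 4 were called lower and 0 higher, against 1.34% of all genes called, 0.465% higher and 0.879% lower. The called genes were Srxn1, at -0.43 (SE 0.054, edgeR adjusted p = 0.000313), Me1, at -0.28 (SE 0.067), Txnrd1, at -0.27 (SE 0.059), and Pgd, at -0.27 (SE 0.061). The median of the 10 was -0.25, and 0.00 over all genes. Among all called genes 34.6% were higher with Mito-TEMPO, a share that was 46.7% with upper-quartile scaling, under which 2 of the 10 genes were called. Leaving out a library moved this share between 17.1%, without Lip-1+FAC replicate 1, and 51.3%, without MT+FAC replicate 1. Srxn1 kept its call in all 17 alternatives, whereas Txnrd1, Me1 and Pgd lost theirs in 5, 7 and 8. Me1 lost its call without any 1 of the 6 libraries compared, Txnrd1 without each of them except MT+FAC replicate 2, and Pgd without each except Lip-1+FAC replicate 3.

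In that comparison 7 of the 10 genes had every MT+FAC library below every Lip-1+FAC library and 0 had the reverse, against 19.8% of all genes separated in either direction, 10.2% higher and 9.60% lower. Nqo1 was among them, at -0.31 (95% interval -0.55 to -0.08, edgeR adjusted p = 0.19), and so was Prdx1, at -0.23 (95% interval -0.34 to -0.11, edgeR adjusted p = 0.0538). Prdx1 was called lower in 4 of 17 alternatives (no filter, DESeq2, stranded columns summed, and without Lip-1+FAC replicate 3), and Nqo1 in 1, the fit of the compared groups only. For G6pdx the interval was -0.39 to 0.18 and for Tkt -0.14 to 0.08, and neither was called. The order Control, FAC, MT+FAC, Lip-1+FAC from low to high held for Nqo1, Srxn1, Txnrd1 and Me1. Each neighbouring pair was called for the last 3 of these, and for Nqo1 the pair of pretreated groups was not. Of these 3 genes only Srxn1 kept all its calls in the 17 alternatives. The call between MT+FAC and FAC was lost in 10 for Txnrd1 and 3 for Me1, and that between the pretreated groups in 5 and 7.

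Related genes were counted in lists written from general knowledge, but with earlier results of these data known. Their counts are to be read against all genes tested, of which 17.5% rose and 19.1% fell with FAC, 20.7% and 19.2% with liproxstatin-1 and 21.2% and 19.7% with Mito-TEMPO. Several lists are short and not far from these shares, and no list was tested as a set. Of 17 other thioredoxin and peroxiredoxin genes, 1 was called higher and 6 lower with FAC, with a median of -0.04, a called share close to that of all genes. Txnrd3, a further thioredoxin reductase gene, rose by 0.58 (SE 0.11), and Msrb2, a mitochondrial methionine sulfoxide reductase gene, fell by 0.92 (SE 0.14). Pretreatment moved Msrb2 the other way, by 0.81 with liproxstatin-1 and 0.89 with Mito-TEMPO. In Lip-1+FAC against FAC 4 of the 17 rose and 5 fell, and in MT+FAC against FAC 5 rose and 4 fell. Txnip, which encodes an inhibitor of thioredoxin, rose by 1.04 (SE 0.26) with liproxstatin-1 and by 0.72 (SE 0.26) with Mito-TEMPO, the latter call lost in 5 of 17 alternatives, among them the fits without FAC replicate 1 or 2 or MT+FAC replicate 1 or 3. Prdx4, the peroxiredoxin of the endoplasmic reticulum, fell by 0.38 and 0.46.

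Glutathione reductase (Gsr), which does for glutathione what Txnrd1 does for thioredoxin, rose by 0.39 (SE 0.057) with FAC and by a further 0.38 (SE 0.056) with liproxstatin-1, from 302 to 397 and 516 CPM. Of the 5 genes of glutaredoxins and glutathione reductase, 2 rose and 2 fell with FAC, 2 rose with liproxstatin-1, and 1 rose and 1 fell with Mito-TEMPO. Glrx fell by 0.76 with FAC and rose by 0.35 and 0.41 with the pretreatments. The list's medians were -0.12, 0.22 and 0.07 in the 3 comparisons.

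Of 11 other pentose phosphate pathway genes, 8 could be tested, and G6pd2, Tktl1 and Tktl2 had too few counts. FAC raised 0 of the 8 and lowered 3, and each pretreatment raised 3 and lowered 1, with medians of -0.04, 0.23 and 0.09. Prps2, which makes the nucleotide precursor PRPP from ribose 5-phosphate, fell by 0.56 (SE 0.13) with FAC and rose by 0.83 and 0.66 with the pretreatments. Pgls, whose enzyme acts between those of G6pdx and Pgd, fell by 0.41 (SE 0.10) with liproxstatin-1 and by 0.38 (SE 0.10) with Mito-TEMPO, the second call being lost without FAC replicate 2, at -0.26. Of the exonic bases of Pgls, 20.58% are shared with another gene.

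Other routes to NADPH moved both ways. Of 12 tested genes of NADPH supply, 4 rose and 6 fell with FAC, 6 rose and 3 fell with liproxstatin-1, and 5 rose and 2 fell with Mito-TEMPO, with medians of -0.17, 0.29 and 0.27. Idh1, the cytosolic NADP-dependent isocitrate dehydrogenase, stood at 465 CPM under FAC, 939 under Lip-1+FAC and 736 under MT+FAC, rises of 1.01 (SE 0.063, edgeR adjusted p = 2.57e-09) and 0.66 (SE 0.063, edgeR adjusted p = 3.77e-07). The mitochondrial Idh2 fell by 0.57 (SE 0.060) with FAC and rose by 0.53 and 0.54 (SE 0.060 each) with the pretreatments. Me2, the mitochondrial malic enzyme that mainly uses NAD, stood at 14.6 CPM in control, 22.8 under FAC, 6.59 under Lip-1+FAC and 8.07 under MT+FAC. Its falls of 1.79 (SE 0.25) and 1.49 (SE 0.24) with the pretreatments were called in all 17 alternatives each, and its rise of 0.64 with FAC was lost in 9, among them the fits without any 1 of the control libraries or without FAC replicate 1 or 3.

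The 9 lipogenic genes and regulators, consumers of NADPH in the liver, counted 0 higher and 1 lower with FAC, 4 higher and 2 lower with liproxstatin-1, and 2 higher and 1 lower with Mito-TEMPO, with medians of 0.11, 0.27 and 0.11. Acaca, the acetyl-CoA carboxylase gene, rose by 1.26 (SE 0.25) with liproxstatin-1, and by 0.92 (SE 0.25) with Mito-TEMPO, where the call was lost in 3 alternatives, among them the fits without FAC replicate 1 or 2. Without MT+FAC replicate 1 the rise was 0.59 and still called. Fasn, the fatty acid synthase gene, rose by 0.80 (SE 0.18) with liproxstatin-1. Acly, the ATP citrate lyase gene, rose by 0.73 with liproxstatin-1 and by 0.32 with Mito-TEMPO.

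Of 10 other quinone and carbonyl reductases, 2 rose and 3 fell with FAC, and 7 rose and 1 fell with each pretreatment, with medians of -0.07, 0.32 and 0.32. Nqo2, a quinone reductase that does not use NADPH, fell by 0.59 (SE 0.073) with FAC and rose by 1.16 and 0.90 with the pretreatments. Of its exonic bases, 18.85% are shared with Serpinb6a on the opposite strand, and the calls held in all 17 alternatives. Cbr3, a carbonyl reductase gene, rose by 1.17 with FAC and by a further 1.60 and 1.27, from 1.75 CPM in control to 11.9 in Lip-1+FAC. Por, which passes NADPH electrons to cytochromes P450, rose by 0.40 with FAC and fell by 0.82 and 0.76 with the pretreatments.

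Of 10 other NRF2 targets, 7 rose and 1 fell with FAC, 7 rose and 1 fell with liproxstatin-1, and 5 rose and 2 fell with Mito-TEMPO, with medians of 0.61, 0.43 and 0.16. Against control all 10 rose in each pretreated group. Slc7a11, the cystine transporter gene, rose by 1.96 with FAC and by a further 1.09 with liproxstatin-1, and Gstm1 by 0.84 and 0.71 with the pretreatments. Hmox1 went the other way, with a rise of 3.10 with FAC and falls of 0.79 and 1.02. Among 7 genes that regulate or partner NRF2, 5 rose and 1 fell with FAC, 2 rose and 3 fell with liproxstatin-1, and 1 rose and 4 fell with Mito-TEMPO, with medians of 0.90, -0.12 and -0.25. Maff and Bach1, whose proteins bind the same elements, rose by 1.64 and 1.14 with FAC. Maff fell by 1.04 and 1.54 and Bach1 by 0.42 and 0.82 with the pretreatments, the fall of 0.42 being lost when FAC replicate 1 was left out, at -0.30, or Lip-1+FAC replicate 2, at -0.33. The mRNA of NRF2 itself, Nfe2l2, changed by -0.29 (SE 0.068) with FAC. It rose by 0.20 with liproxstatin-1 (edgeR adjusted p = 0.0261) and by 0.23 with Mito-TEMPO (edgeR adjusted p = 0.011). Sqstm1 rose by 0.39 (SE 0.064) with liproxstatin-1.

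**Figure D5:**
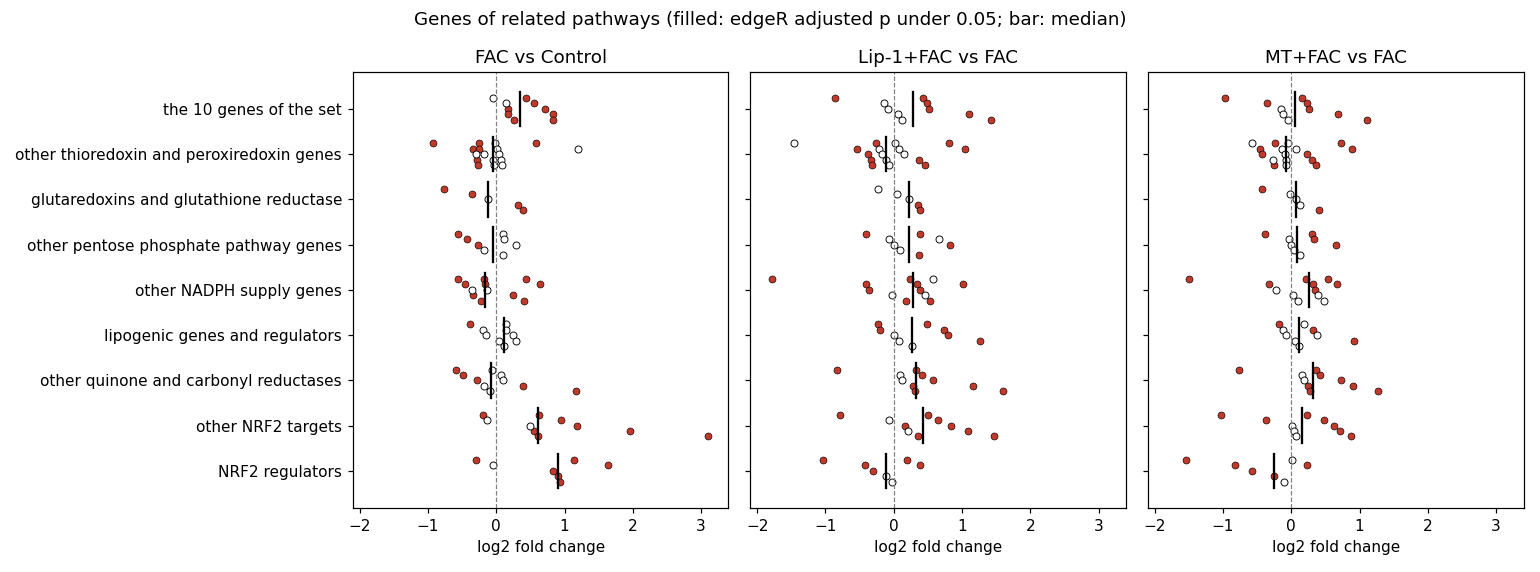
Log2 fold changes of the 10 genes and of the related lists in the 3 comparisons. Each point is a gene, filled where the edgeR adjusted p was under 0.05, and the vertical bar is the median of the list; with FAC the bars of the 10 genes (0.34) and of other NRF2 targets (0.61) lie right of 0, and those of the other thioredoxin (-0.04) and pentose phosphate (-0.04) genes lie close to it.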

How the data were processed

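The authors deposited unnormalised whole-number read counts, gene by gene, in the layout of STAR, with build GRCm38, both per the submitters' processing notes. The STAR version and the annotation are not given in the sources used here. Per the labels' protocols, RNA was amplified with a SMART-Seq v4 kit and libraries were made with Nextera XT. No molecular identifiers are named, so reads are not independent molecules. The unstranded column was used because 49.88% to 50.0% of reads fell on the first strand. Reads mapping to several places count for no gene there. Lines that name no gene were left out, and 75.8% to 81.2% of reads were assigned to genes.

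Names and coordinates come from GENCODE M21 (55227 of 55487 identifiers matched) and promoters from RefSeq. Genes were filtered by filterByExpr and scaled by TMM (factors 0.9892 to 1.012). The test was edgeR 4.0.16's quasi-likelihood test, two-sided, in a fit of the 12 libraries by group without covariates, with Benjamini-Hochberg adjustment over 13535 genes. Adjusted p under 0.05 counted as a call. The common coefficient of variation was 9.71%. The script was tested on simulated data. Copies were searched with blastn 2.17.0. Alternatives changed scaling, filter, test (DESeq2 1.42.0), libraries, counting columns, depth, GC content and length offsets, and the replicate block. From each list the 2 largest rises and 2 largest falls among called genes averaging 5 CPM or more could be named. For each member the 3 genes most like it across libraries were named. The members and lists were chosen with earlier results of these data known.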

Additional observations from a re-analysis of the deposited data

How the results depend on the processing

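For each of the 60 log2 fold changes of the 10 genes 17 alternatives were run, and 35 of the 60 kept their sign and side of the threshold in all of them. Over 1020 pairs of value and alternative, 931 stayed the same, 53 lost a call, 26 gained one and 10 changed sign, of which 0 came from called values. The sign changes concerned Prdx1 in FAC against control, 0.063 with GC and length offsets and 0.062 with the replicate block added to them, Tkt in MT+FAC against control, -0.040 and -0.039 in these fits, and Taldo1 in MT+FAC against FAC, 0.025 without FAC replicate 3 (range -0.086 to 0.025 when a library was left out). Txn1 in Lip-1+FAC against control was -0.021 with upper-quartile scaling, -0.011 with the filter at a mean of 5 CPM, and -0.059 to 0.119 when a library was left out. The number of the 10 genes called in MT+FAC against Lip-1+FAC was 2 with upper-quartile scaling and 1 to 3 when a library was left out, and 5 without a filter, with DESeq2, with only the compared groups and with the stranded columns summed, against 4. All genes called there numbered 477 without a filter, 462 with DESeq2, 312 when the fit held just the compared groups and 74 to 156 when a library was left out, against 182. Leaving out a library gave 6 to 8 members called in FAC against control, 6 to 7 in Lip-1+FAC against FAC, 5 to 7 in MT+FAC against FAC, 7 to 8 in Lip-1+FAC against control and 5 to 7 in MT+FAC against control, and over all genes 4048 to 4803, 4566 to 4990, 4488 to 5112, 3233 to 3876 and 1794 to 2830 in that order. Over all genes, same-numbered replicates did not deviate together (18 pairs, correlations -0.249 to 0.164, 3 over 0.1). The numbers thus give no pairing over all genes, which says nothing about single genes. For G6pdx, replicate 2 was the lowest in all 4 groups. With the replicate block 193 genes were called in MT+FAC against Lip-1+FAC, and the only change of call among the 10 genes was G6pdx in Lip-1+FAC against control, -0.30 (edgeR adjusted p = 0.00142). The same alternatives were extended to the 77 values of named list genes after seeing the data, of which 61 kept their call throughout and 16 lost it in at least 1 alternative. Nqo1, with as few as 164 counts in a library, has the least depth of the set.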

Other observations

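The genes most like each member across the 12 libraries were found by the root mean square difference of centred log2 CPM, over 9137 genes averaging 5 CPM or more. The libraries share their groups and depth, so these values describe likeness of pattern only. For Nqo1 they were Ttll7 (0.15), Srxn1 (0.212) and Gsta2, a glutathione S-transferase gene (0.221), against a spread of 0.784 of Nqo1 about its own mean. For Srxn1 they were Abcc2, which encodes an export pump of the bile canaliculus (0.154), Ttll7 (0.185) and Gsta2 (0.202). Txnrd1 was nearest to Rassf6 (0.075), Ppfibp2 (0.0873) and Ugdh, the UDP-glucose dehydrogenase gene (0.0908). Pgd was nearest to Slc48a1, a heme transporter gene (0.102), Gclc, the catalytic subunit of glutathione synthesis (0.11), and Pip4p2 (0.111).

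The nearest genes of G6pdx were Cks1b, a cell cycle kinase subunit gene (0.117), Tgm1 (0.15) and Zfp36 (0.156), none of them a member. On this measure the distances were 0.551 between G6pdx and Pgd, 0.419 between G6pdx and Taldo1 and 0.29 between Pgd and Taldo1. Taldo1 and Tkt were the closest pair of the set, at 0.0859. Pgd was closer to Txnrd1, at 0.169, than to G6pdx, Taldo1 or Tkt. Me1 was nearest to Ccser2 (0.0652), Sh3bgrl2 (0.0698) and Psmd5 (0.0837), and within the set to Prdx1 (0.155).

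Prdx1 was nearest to Papola (0.0543), Aqp8, a water channel gene (0.0544), and Pcyt1a (0.0635). Txn1 was nearest to Atp6v1f (0.0597), Bri3 (0.0632) and Psmb5, a proteasome subunit gene (0.0761). Taldo1 was nearest to Vcp (0.0394), Mpp1 (0.0508) and Otud6b (0.0512), and Tkt to Ubap2l (0.0435), Mcoln1 (0.044) and Lsm14a (0.0488). These 4 genes varied little, with spreads of 0.174 for Txn1, 0.196 for Prdx1, 0.101 for Taldo1 and 0.0719 for Tkt about their own means, so that many genes lie close to them.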
